A study of Mus musculus with 6 samples.

Results

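Maxillary first molars homozygous for an Ascl5 mutation (Ascl5Mut/Mut) were compared with wild-type molars (Ascl5WT/WT) across all 24972 genes that the authors deposited for this pair of genotypes. The comparison takes 4 of the 6 libraries of the series, chosen by genotype label alone, and the other 2 came from Ascl5Mut/WT molars. All teeth were harvested from mice at postnatal day 1, and there were 2 libraries per genotype. No treatment is named for any group. The labels do not state what the Ascl5 mutation is, how it was made, the strain, or how many animals or teeth went into a library. They give 1 sequencing batch for all libraries, which were made from total RNA with a SMARTer Stranded kit. In what follows, the values of a genotype are given with replicate 1 first.

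The product of Ascl5 is a basic helix-loop-helix transcription factor of the dental epithelium. Factors of this family pair with broadly expressed E-proteins and bind the short DNA motif called the E-box. In a newborn molar, inner enamel epithelium is maturing into enamel-secreting ameloblasts beside dental papilla cells that become dentin-secreting odontoblasts. The dental follicle around the tooth later gives rise to periodontal ligament, cementum and part of the alveolar bone, and osteoclasts resorb bone around the growing germ. The oral mucosa, jaw bone and muscle lie next to the tooth and are separated from it by dissection.

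In Ascl5Mut/Mut molars, mucosal keratins, the osteoclast protease Ctsk and the matrix protein Postn stood higher than in Ascl5WT/WT molars, as did the growth factor binding protein Igfbp5. The zinc-sensing receptor Gpr39, the homeobox gene Dlx1, the tudor-domain gene Tdrd1 and the Notch inhibitor Numb stood lower. Gpr39, Dlx1 and Numb share exon bases with an opposite-strand gene, and the reads of such a pair cannot be told apart. Limma called 20 of the 2336 genes with a mean of at least 1000 normalized counts, 0.856% of those tested, at a Benjamini-Hochberg adjusted p under 0.05. Of these, 13 were higher in Ascl5Mut/Mut (0.557%) and 7 were lower (0.300%). The filter on the mean takes part in the calls. Of the 20, 7 had a wild-type mean under 1000 and were tested only through the mutant libraries. They were Ctsk, Krt4, Krt13, Rptn, 5031410I06Rik, Gpr137b and Gemin4, all higher. Another 2, Tdrd1 and Gm13205, both lower, had a mutant mean under 1000. At an unadjusted p under 0.05 there were 261 genes (11.2%), 148 higher and 113 lower. Values of the 2 genotypes did not overlap, with both mutant libraries above both wild-type libraries, in 514 genes (22.0%), and they lay apart in the other direction in 509 (21.8%). The median log2 difference over all tested genes was -0.02, and the 5th and 95th percentiles were -1.81 and 2.08. A log2 difference here is Ascl5Mut/Mut minus Ascl5WT/WT on the log2(normalized count + 120) scale, where 120 is close to the value of 1 read, so it understates the change of low genes. The calls lay on 11 chromosomes, and 2 were on chromosome 1, which holds Ascl5.

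Leaving out 1 library changed the calls, most of all where it was a mutant library. The wild-type pair alone then gives the spread, and the lone mutant library is assumed to vary like it. Without Ascl5Mut/Mut replicate 1 limma called 0 genes, the smallest adjusted p was 0.0842, and 262 genes had an unadjusted p under 0.05. Without Ascl5Mut/Mut replicate 2 it also called 0 genes, the smallest adjusted p was 0.0802, and 224 genes had an unadjusted p under 0.05. The log2 differences of the 20 genes were then 0.671 to 1.24 times (without replicate 1) and 0.765 to 1.33 times (without replicate 2) those of all 4 libraries. That of Gpr39 was -4.44 and -4.73, and that of Tdrd1 was -3.67 and -7.28. Without Ascl5WT/WT replicate 1 there were 7 calls, all among the 20 (Gpr39, Dlx1, Gm10389, Ctsk, Perm1, Krt4 and 5031410I06Rik). Without Ascl5WT/WT replicate 2 there were 33 calls, which held 16 of the 20 and left out Afap1l2, Copg2, Gm13205 and Tdrd1. With no intensity trend in the variance limma called 0 genes, the smallest adjusted p was 0.12, and 242 genes had an unadjusted p under 0.05. Nothing in the labels says whether the libraries came from separate animals, so these p-values measure only the spread between these samples. That spread includes a difference in Y-linked genes between the replicates of each genotype, given below. How much of the rest is technical is not known. In a bulk sample, fewer cells of a type and less RNA per cell cannot be told apart.

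**Figure D1:**
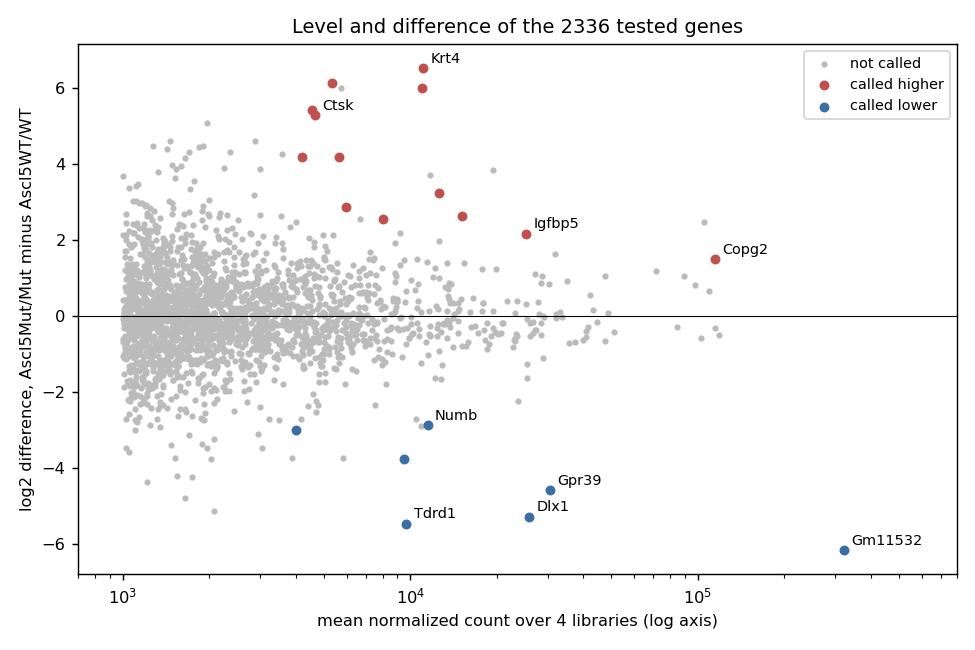
Each point is 1 of the 2336 tested genes, placed by its mean normalized count over the 4 libraries (horizontal, log axis) and its log2 difference, Ascl5Mut/Mut minus Ascl5WT/WT (vertical). The 13 genes called higher are red and the 7 called lower are blue, and Gm11532 and Copg2 are the called genes with the highest levels.

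Few reads were counted per library, which sets what could be seen. Totals ranged from 12304814 to 12904401 normalized counts. Low values came in multiples of 108.7 to 139.8, which appears to be the worth of 1 read. That puts the counted reads near 90476 to 117110 per library, and the sequencing depth is not given. Between 66.8% and 71.0% of genes were listed at 0 in a library, and 12241 genes were at 0 in all 4. A 0 is compatible with up to 3 reads, a floor of 326 to 419 normalized counts. This floor and the counting intervals given below cover counting error only. Across the 2336 tested genes the log2 values of the Ascl5WT/WT libraries correlated with r = 0.668, those of the Ascl5Mut/Mut libraries with r = 0.547, and libraries of different genotype with r = 0.435 to 0.517, a description across genes, which are not independent replicates. In each genotype replicate 1 had counts of Y-linked genes and replicate 2 did not, so the 2 libraries of a genotype differ in Y-linked genes in the same way. Xist was higher in replicate 2 of each genotype, with 3060 and 6106 normalized counts in Ascl5WT/WT and 322 and 9751 in Ascl5Mut/Mut. It was thus counted in the libraries with Y-linked counts too, more in Ascl5WT/WT replicate 1 than in Ascl5Mut/Mut replicate 1. Tsix, the antisense partner of Xist, had 126014 normalized counts in Ascl5WT/WT replicate 2 and 310649 in Ascl5Mut/Mut replicate 2 and was listed at 0 in the replicate 1 libraries.

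Some libraries stood apart in markers of neighbouring tissue. The 32 skeletal muscle genes summed to 263379 normalized counts in Ascl5Mut/Mut replicate 1, or 2.04% of its total, against 14376 in Ascl5Mut/Mut replicate 2 and 9581 and 43385 in Ascl5WT/WT, and 7 of them were at 0 in all 4 libraries. The 10 that were tested had a median of 1.09, which was -0.52 without Ascl5Mut/Mut replicate 1 and -0.19 without Ascl5WT/WT replicate 1, and 0 were called. Of these 10, 5 had a wild-type mean under 1000 and were tested only through the mutant libraries. The keratinized oral epithelium genes summed to 164676 in Ascl5Mut/Mut replicate 2 and 25471 in Ascl5Mut/Mut replicate 1, against 3559 and 4505. Erythroid genes summed to 24972 in Ascl5WT/WT replicate 2 and to between 2948 and 5503 in the other libraries.

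Ascl5 itself (GRCm38 chromosome 1, 136050804 to 136051370, plus strand) was listed at 0 in all 4 libraries, so the genotype labels could not be checked from its level. The defining matrix genes of differentiated tooth cells were at or near 0 as well. Amelx, the main enamel matrix protein, was listed at 0 in all 4 libraries. Ambn, a second enamel matrix protein, had 140 normalized counts in Ascl5Mut/Mut replicate 1 and 0 elsewhere, and Dspp, the dentin phosphoprotein precursor, had 327 in Ascl5WT/WT replicate 1 and 0 elsewhere. Col1a1, the type I collagen chain of dentin and bone, had 11973 and 23032 in Ascl5WT/WT and 46509 and 26959 in Ascl5Mut/Mut. The basal keratin Krt14 had 14740 and 13227 against 6362 and 20549, so transcripts of epithelium and of collagen-making mesenchyme were counted in every library, with the Ascl5Mut/Mut values of Krt14 on either side of those of Ascl5WT/WT.

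Reads in this table often fell on genes that overlap another gene on the opposite strand. Exons of 24.2% of all matched genes overlap an exon of an opposite-strand gene, against 51.3% of the tested genes and 45.0% of the 20 called genes (9 genes). Such genes held 58.9% and 57.1% of the total in Ascl5WT/WT and 55.0% and 51.8% in Ascl5Mut/Mut. The strand setting used in counting is not given in the sources used here, so for these 9 genes the reads of a gene and of its opposite-strand partner cannot be told apart. In the uncalled pair Tsix and Xist, Tsix held more counts in both replicate 2 libraries, 126014 against 6106 and 310649 against 9751. Xist held more in both replicate 1 libraries, where Tsix was at 0. Whether reads were assigned to the opposite strand was not tested. With all overlapping genes left out of the fit, 1160 genes were tested and limma called 0, the smallest adjusted p being 0.0663, and 143 had an unadjusted p under 0.05. The other 11 called genes, 9 higher and 2 lower, were thus not called in a fit without the overlapping genes.

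Of the 7 genes that fell, Gpr39 and Dlx1 had the smallest adjusted p. Gpr39, a G protein-coupled receptor activated by zinc (chromosome 1, 125676995 to 125873862, plus strand), had 58793 and 58649 normalized counts in Ascl5WT/WT and 2100 and 2599 in Ascl5Mut/Mut. The wild-type replicates were almost equal and the genotypes lay far apart. In the fit Gpr39 fell by 4.58 log2 units (SE 0.36, limma adjusted p = 0.000383), and it stayed called in 14 of the 18 other settings that tested it. Its exons overlap those of Lypd1, a membrane-anchored protein of the Ly6 family, by 1202 bases, and Lypd1 itself had 874 and 604 against 556 and 0.

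Dlx1, a homeobox transcription factor of dental mesenchyme (chromosome 2, 71528113 to 71533981, plus strand), had 47224 and 53336 normalized counts in Ascl5WT/WT and 2348 and 556 in Ascl5Mut/Mut. It fell by 5.28 (SE 0.57, limma adjusted p = 0.00405). Its antisense partner Dlx1as, with which it shares 335 exon bases, had 27823 and 10656 against 3897 and 1241 and did not pass (log2 difference -2.89, limma adjusted p = 0.0796). The counts listed for both genes of this locus were therefore lower in each mutant library than in either wild-type library. Reads of the pair cannot be told apart. The neighbouring Dlx2 had 427 and 1441 against 429 and 0, and Dlx5 was listed at 0 throughout.

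The feature with the highest count in both wild-type libraries was Gm11532, a model without a coding call (chromosome 11, 97020508 to 97026248, minus strand). It had 869884 and 389895 normalized counts in Ascl5WT/WT, 6.83% and 3.1% of the totals, and 2113 and 29497 in Ascl5Mut/Mut. The genotypes did not overlap although the replicates of each differed widely. It fell by 6.16 (SE 0.91, limma adjusted p = 0.0162), and this call was lost without Ascl5WT/WT replicate 1 as well as without either mutant library. With all 4 libraries kept, the call was also lost under robust variance moderation (limma adjusted p = 0.464). Gm11532 shares 3329 exon bases with Sp6, a zinc-finger factor of the enamel epithelium, which had 1525 and 0 against 0 and 0.

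Tdrd1 and Afap1l2 fell together on chromosome 19, separated by 42348 bases that hold Vwa2. Tdrd1, a tudor-domain protein of the germline piRNA pathway (56826209 to 56870012, plus strand), had 21355 and 16039 normalized counts in Ascl5WT/WT and 0 and 1345 in Ascl5Mut/Mut. It fell by 5.47 (SE 0.98, limma adjusted p = 0.0356). Afap1l2, an adaptor of the actin-filament-associated protein family (56912361 to 57008228, minus strand), had 15834 and 19367 against 558 and 2381 and fell by 3.76 (SE 0.62, limma adjusted p = 0.0271). Vwa2, which lies between them, had 764 and 1762 against 276 and 423, a low level at which the genotypes also did not overlap. Neither Tdrd1 nor Afap1l2 overlaps an exon on the opposite strand. Both calls were lost when any 1 of the 4 libraries was left out. That of Tdrd1 was also lost under robust variance moderation of all 4 libraries (limma adjusted p = 0.105). The 17 genes of the germline piRNA list summed to 23245 and 16283 against 945 and 3110, most of it Tdrd1 in Ascl5WT/WT, and 10 of them were listed at 0 in all 4 libraries.

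Numb and Gm13205 completed the genes that fell. Numb, an endocytic adaptor that inhibits Notch (chromosome 12, 83794034 to 83921934, minus strand), had 25020 and 15224 normalized counts in Ascl5WT/WT and 1532 and 4195 in Ascl5Mut/Mut, and fell by 2.88 (SE 0.53, limma adjusted p = 0.0403). Gm13205, annotated as an antisense RNA of the zinc-finger gene Casz1 (chromosome 4, 148947492 to 148948914, minus strand), had 8848 and 5657 against 827 and 726 and fell by 3.01 (limma adjusted p = 0.0459). Casz1 had 3945 and 1396 against 3178 and 1865, so its genotypes overlapped. Without Ascl5WT/WT replicate 1 neither call held, and that of Gm13205 was lost without Ascl5WT/WT replicate 2 too.

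Among the 13 genes that rose were 3 of stratified oral mucosa. Krt4, the type II keratin of non-cornified oral epithelium (chromosome 15, 101918535 to 101924735, minus strand), had 109 and 0 normalized counts in Ascl5WT/WT and 5922 and 38281 in Ascl5Mut/Mut. Its partner Krt13 (chromosome 11, 100117327 to 100121566, minus strand) had 0 and 306 against 5344 and 38097. Rptn, a precursor protein of the cornified envelope (chromosome 3, 93393699 to 93399442, plus strand), had 0 and 0 against 3948 and 17423. In all 3 genes the wild-type libraries were at or under the floor and Ascl5Mut/Mut replicate 2 exceeded replicate 1 several times over. The log2 difference of Krt4, which rose, was 6.52 (SE 0.93, limma adjusted p = 0.0151), and that of Krt13, which also rose, was 6.0 (SE 0.99, limma adjusted p = 0.0271). On estimated reads, 1 in Ascl5WT/WT against 323, the Krt4 ratio was 391 with a 95% counting interval of 69.6 to 15500, and that of Krt13, 3 against 318, was 128 with an interval of 43.5 to 625. Rptn was at least 31.2-fold higher, against the floor of 3 reads in each wild-type library (limma adjusted p = 0.0403). The calls of Krt13 and Rptn were also lost without Ascl5WT/WT replicate 1.

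Ctsk, the lysosomal protease with which osteoclasts degrade collagen (chromosome 3, 95499256 to 95509362, plus strand), had 109 and 120 normalized counts in Ascl5WT/WT, about 1 read in each, and 11106 and 7277 in Ascl5Mut/Mut. It rose by 5.28 (SE 0.74, limma adjusted p = 0.0151). On estimated reads, 2 against 133, the ratio was 80.4 with a 95% counting interval of 21.8 to 671. Gpr137b, a lysosomal membrane protein (chromosome 13, 13357620 to 13394014, minus strand), had 109 and 722 against 9890 and 6112 and rose by 4.17 (limma adjusted p = 0.0403). Its near copy Gpr137b-ps had 981 and 1325 against 7344 and 6375 without passing (log2 difference 2.46, limma adjusted p = 0.0812). The 2 transcripts are 99.7% identical over 726 aligned bases, so how reads were divided between them is uncertain. The Gpr137b call was lost without Ascl5WT/WT replicate 1.

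Igfbp5 and Postn, of growth factor binding and matrix, also rose. Igfbp5, which binds insulin-like growth factors (chromosome 1, 72857932 to 72874884, minus strand), had 7627 and 10872 normalized counts in Ascl5WT/WT and 38667 and 43801 in Ascl5Mut/Mut, and rose by 2.16 (SE 0.33, limma adjusted p = 0.0218). The matricellular protein Postn, of periodontal ligament and its follicle precursor (chromosome 3, 54361109 to 54391037, plus strand), had 2406 and 2024 against 16124 and 11457 and rose by 2.56 (SE 0.45, limma adjusted p = 0.0356). Replicates were close to each other in both genes and the genotypes lay well apart. Both calls were lost without Ascl5WT/WT replicate 1.

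Perm1, a regulator of mitochondrial and contractile genes in muscle (chromosome 4, 156215868 to 156221307, plus strand), had 4477 and 3811 normalized counts in Ascl5WT/WT and 23321 and 28968 in Ascl5Mut/Mut, and rose by 2.62 (SE 0.37, limma adjusted p = 0.0151). Its level was high in both mutant libraries. The skeletal muscle list was high in Ascl5Mut/Mut replicate 1 and lay below Ascl5WT/WT replicate 2 in Ascl5Mut/Mut replicate 2. The part of muscle in the Perm1 values was not tested. Gm10389, annotated as an antisense RNA (chromosome 15, 10600293 to 10611651, plus strand), had 2752 and 1948 against 22524 and 22961 and rose by 3.23 (SE 0.41, limma adjusted p = 0.0113). It shares 89 exon bases with Rai14, an ankyrin-repeat protein of actin-rich structures, at 867 and 856 against 708 and 2920. Gm10389 stayed called in 13 of the 18 other settings that tested it and Perm1 in 12 of 19.

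Copg2, a subunit of the coat of transport vesicles (chromosome 6, 30747554 to 30896794, minus strand), had 52675 and 67446 normalized counts in Ascl5WT/WT and 196278 and 143155 in Ascl5Mut/Mut, and rose by 1.49 (SE 0.26, limma adjusted p = 0.0337). It shares 912 exon bases with the imprinted gene Mest, an enzyme expressed from the paternal allele in mesoderm. Mest had 6990 and 6189 against 4987 and 5059, so the 2 genes of this locus lay apart in opposite directions, that of Mest without passing (limma adjusted p = 0.761). The Copg2 call was lost when any 1 of the 4 libraries was left out, and also under upper-quartile rescaling.

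The remaining genes that rose were Ssbp2, Gemin4 and 5031410I06Rik. Ssbp2, a cofactor that stabilizes LIM-domain transcription complexes (chromosome 13, 91460283 to 91703429, plus strand), had 1096 and 1611 normalized counts in Ascl5WT/WT and 8872 and 12301 in Ascl5Mut/Mut and rose by 2.86 (limma adjusted p = 0.0356). Its overlapping partner 4833422C13Rik had 9334 and 14009 against 17443 and 13860, with overlapping genotypes. Gemin4, a component of the SMN complex that assembles spliceosomal particles (chromosome 11, 76210571 to 76217664, minus strand), had 218 and 598 against 4363 and 17421 and rose by 4.17 (limma adjusted p = 0.0416), and its partner Fam57a was listed at 0 throughout. The calls of Ssbp2 and Gemin4 were lost without Ascl5WT/WT replicate 1. 5031410I06Rik (chromosome 5, 26098668 to 26105362, minus strand) had 222 and 0 against 11995 and 5994 and rose by 5.41 (SE 0.88, limma adjusted p = 0.0271). Its neighbour Gm10220, 9401 bases away and 97.1% identical over 2977 aligned transcript bases, had 0 and 0 against 4363 and 3493, and reads of this pair cannot be assigned to 1 of them with confidence.

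**Figure D2:**
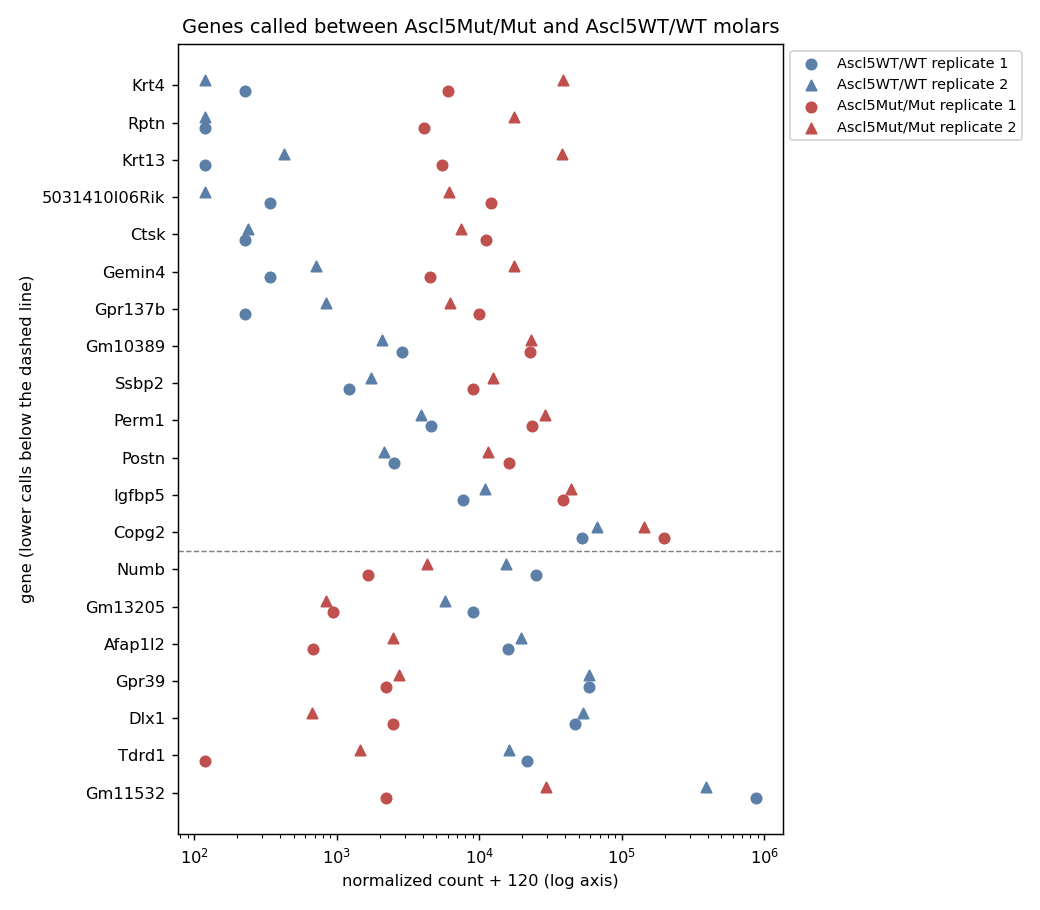
Normalized count + 120 (horizontal, log axis) of the 20 called genes in each of the 4 libraries, with Ascl5WT/WT in blue, Ascl5Mut/Mut in red, circles for replicate 1 and triangles for replicate 2. The 13 genes above the dashed line have both red symbols to the right of both blue ones, and the 7 below it have them to the left. The gaps between replicates are widest in the mutant values of Gm11532 and Tdrd1, followed by those of Krt13 and Krt4.

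**Figure D3:**
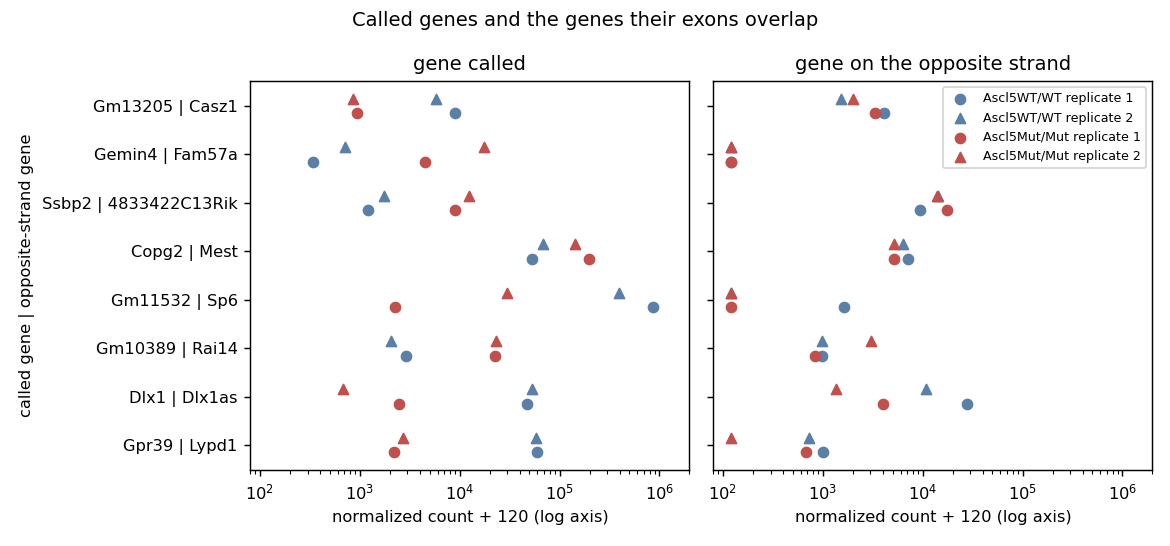
Called genes (left) and the genes on the opposite strand whose exons they overlap (right), as normalized count + 120 on a log axis in each of the 4 libraries. The partner of Dlx1 lies lower in both mutant libraries as Dlx1 does, those of Copg2 and Ssbp2 lie close together in all 4 libraries, and Numb is not drawn because no value was used for its partner Gm46367.

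Because Ascl5 belongs to a family of E-box-binding factors, the 250 bases before the RefSeq start of the called genes were searched for the E-box CANNTG, whose pattern reads the same on both strands, and for its form CAGCTG. RefSeq promoter windows (GRCm38.p6) matched 17 of the 20 called genes with 23 start sites, and there was none for Krt4, Gm11532 and Gpr137b. CANNTG was present in 14 of these 23 windows (60.9%), against 66.2% of all 32851 windows in RefSeq. CAGCTG was present in 2 of 23 (8.7%), against 13% of all windows. These shares were near or under those of all windows. The windows of 2 genes that fell and 2 that rose are shown 5′ to 3′ on the strand of the gene with each CANNTG match in capitals. Gpr39 (chr1:125676746-125676995, plus strand) has 1 match at the far end of the window, Tdrd1 (chr19:56825959-56826208, plus strand) has 2, Ctsk (chr3:95498960-95499209, plus strand) has 3, and Krt13 (chr11:100121567-100121816, minus strand) has 1, which is CAGCTG. A match is a run of letters and was not tested as a binding site.
Gpr39: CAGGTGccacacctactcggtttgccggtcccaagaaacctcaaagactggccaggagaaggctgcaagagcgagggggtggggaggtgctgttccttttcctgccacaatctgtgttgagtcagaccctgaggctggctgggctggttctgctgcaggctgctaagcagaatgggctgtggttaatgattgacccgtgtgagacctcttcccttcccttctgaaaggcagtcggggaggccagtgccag
Tdrd1: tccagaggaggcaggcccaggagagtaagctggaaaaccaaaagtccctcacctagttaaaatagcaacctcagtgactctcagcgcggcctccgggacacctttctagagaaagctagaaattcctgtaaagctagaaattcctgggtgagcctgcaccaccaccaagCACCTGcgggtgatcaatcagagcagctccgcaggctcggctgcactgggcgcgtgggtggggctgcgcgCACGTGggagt
Ctsk: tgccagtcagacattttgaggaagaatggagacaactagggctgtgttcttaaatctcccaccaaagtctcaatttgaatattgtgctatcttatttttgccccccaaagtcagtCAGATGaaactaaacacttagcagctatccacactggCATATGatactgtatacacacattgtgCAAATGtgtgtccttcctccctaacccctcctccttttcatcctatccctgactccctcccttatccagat
Krt13: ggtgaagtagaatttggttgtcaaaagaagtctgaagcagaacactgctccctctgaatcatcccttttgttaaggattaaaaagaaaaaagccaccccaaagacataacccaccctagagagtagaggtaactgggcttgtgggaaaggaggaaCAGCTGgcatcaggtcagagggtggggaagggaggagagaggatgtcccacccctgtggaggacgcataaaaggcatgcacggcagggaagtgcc

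The uncalled genes with the smallest p in each direction, among those whose genotypes did not overlap, are given next, and none of them passed. Mas1, a receptor for angiotensin fragments, had 2733 and 3847 normalized counts in Ascl5WT/WT and 12993 and 17306 in Ascl5Mut/Mut (log2 difference 2.17, limma adjusted p = 0.0545). Tnc, a matricellular protein, had 545 and 119 against 5876 and 5500 (3.87, limma adjusted p = 0.0566). Krt76, a keratin of the palate and gingiva, was listed at 0 in both wild-type libraries and had 2761 and 20277 (limma adjusted p = 0.0647), at least 33.6-fold higher against the floor. In Krt76 Ascl5Mut/Mut replicate 2 was far above replicate 1, and in Mas1 and Tnc the mutant replicates were close. Olfml3, a secreted glycoprotein, had 662 and 1181 against 5833 and 6463 (limma adjusted p = 0.0866). Spp1, or osteopontin, had 0 and 862 against 8305 and 5100 (4.27, limma adjusted p = 0.103). Further genes of this set were Gpr137b-ps, Gm3693, 1700109K24Rik and E130310I04Rik, with adjusted p of 0.0812 to 0.143 in limma.

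Toward lower values, Wdr76, a WD-repeat protein, had 6921 and 7689 normalized counts in Ascl5WT/WT and 1257 and 797 in Ascl5Mut/Mut (log2 difference -2.72, limma adjusted p = 0.0566). Hsp90ab1, a cytosolic chaperone, had 46449 and 30996 against 12534 and 11651 (-1.64, limma adjusted p = 0.0566). Oraov1 had 46087 and 31095 against 12534 and 4941 (-2.25, limma adjusted p = 0.0566) and shares 1100 exon bases with the cyclin gene Ccnd1, at 10270 and 7039 against 7416 and 3140. All of these stayed just outside the threshold. Jak1, a kinase of cytokine receptors, had 7087 and 8960 against 841 and 1884 (-2.54, limma adjusted p = 0.0866). Trp63, the master regulator of stratified and dental epithelium, had 21134 and 13756 against 1049 and 5829 (-2.7, limma adjusted p = 0.145). Vps37a, Kcnmb4os2, Tcte1 and Smu1 had adjusted p of 0.0873 to 0.143 in limma, and Dlx1as is given above. Of the 20 uncalled genes named in this way, 10 overlap an exon on the opposite strand, among them Tnc, Krt76 and Jak1.

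Genes listed at 0 in 1 genotype were mostly low. At 0 in both wild-type libraries and above 0 in both mutant libraries were 457 genes, of which 12 exceeded 1000 in both mutant libraries and 2 exceeded 3000 (Rptn and Gm10220). In the other direction 588 genes were at 0 in both mutant libraries and above 0 in both wild-type libraries, with 14 above 1000 and 1 above 3000, Aldh1b1, a mitochondrial aldehyde dehydrogenase, at 4923 and 3389. Tigd4, Celf5, Tmem200c, Pinx1, 1700123L14Rik, Cep295, Cyb561d1 and Slc30a1 also ranked among the 10 with the highest means. Shh, the hedgehog ligand of dental epithelium and the last of the 10, had 2146 and 1340 normalized counts in wild type against 0 and 0 in the mutant, at least 4.22-fold lower against the floor of 3 reads per library. It shares 446 exon bases with the antisense gene 9530036O11Rik. Its mean was under the minimum for a test. The basal keratin Krt15 was at 0 in both wild-type libraries, and Spink5, a protease inhibitor of cornifying epithelium, had 0 and 0 against 1283 and 4408. Kcnrg, Rtl5 and Gm5105 were the other genes listed at 0 in Ascl5WT/WT whose mean ranked among the 10 highest, together with Myhas, Sprr3, Krt76, Rptn and Gm10220. Myhas, an RNA of the myosin heavy chain cluster, had 7988 in Ascl5Mut/Mut replicate 1 alone, the library with the high muscle sum.

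Gene lists of tooth and neighbouring cells are described next by their counts and medians, beside the 0.856% of genes called, the 22.0% and 21.8% that lay apart, and the median of -0.02 over all tested genes. In all, 47 lists held 239 tested genes and 12 of the 20 called genes. The filter on the mean takes part in these medians: 43 of the 239 had a wild-type mean under 1000 and so were tested only through the mutant libraries, and 23 had a mutant mean under 1000. Such members had to differ, and the medians are descriptions of the members that passed. Sums over all of a list's members were higher in both mutant libraries than in either wild-type library for 17 lists and lower for 15.

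Of the 29 genes of preameloblasts and enamel epithelium, 6 passed the filter and 0 were called, with 1 lying apart higher and 3 lower, 1 above 0 and a median log2 difference of -0.67 that was -1.15 without Ascl5Mut/Mut replicate 2. By library the list summed to 54795 and 43914 normalized counts in Ascl5WT/WT and to 12157 and 42474 in Ascl5Mut/Mut, so replicate 1 of the mutant was far below and replicate 2 just below the wild-type values. Krt17, a keratin of dental and hair epithelium, had 4638 and 7184 against 272 and 1864 (-2.74, limma adjusted p = 0.221). Krt15 ran the other way at 0 and 0 against 823 and 5974 (limma adjusted p = 0.538), and was tested only through the mutant libraries. Krt5, the basal partner of Krt14, had 2304 and 1759 against 824 and 987 (-1.06, limma adjusted p = 0.594). Dsc3, a desmosomal cadherin of basal layers, had 3424 and 2069 against 556 and 267 (-2.45, limma adjusted p = 0.354). Cdh1, the epithelial cadherin, had 653 and 1561 against 280 and 1769 and overlapped between genotypes. Ovol1, a zinc-finger factor of epidermal differentiation, stood higher at 329 and 474 against 1527 and 1934 (1.83, limma adjusted p = 0.555). Pkp1, a desmosomal plaque protein of suprabasal layers, had 0 and 828 against 560 and 3726 and overlapped (2.26, limma adjusted p = 0.628). The general epithelium list, with 9 of 32 members tested, 0 called, 1 lying apart higher and 2 lower, summed to 46187 and 37927 against 21054 and 82311, its mutant libraries on either side of wild type, and had a median of -0.07 that was 0.73 without Ascl5Mut/Mut replicate 1 and -1.01 without Ascl5Mut/Mut replicate 2.

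The list named keratinized oral epithelium holds genes of cornifying layers together with Krt4 and Krt13, the keratins of non-cornified mucosa. Of its 38 genes 37 were in the table, 9 of them at 0 in all 4 libraries, and 11 were tested, with 3 called higher and 9 lying apart higher. Of these 11, 10 had a wild-type mean under 1000 and were tested only through the mutant libraries, so their count and median follow in part from the filter. The median log2 difference was 3.79 at the minimum mean of 1000, 2.7 at a minimum of 300 and 1.97 at a minimum of 10, and it was 2.21 without Ascl5Mut/Mut replicate 2 and 5.24 without Ascl5Mut/Mut replicate 1. Cdsn, which binds cornified cells together, had 219 and 353 normalized counts in Ascl5WT/WT and 1235 and 9596 in Ascl5Mut/Mut. Krt1, a keratin of cornifying layers, had 541 and 118 against 1267 and 4840, and Sprr3, a cornified envelope protein of mucosa, had 0 and 0 against 435 and 4855. Each of these was highest in Ascl5Mut/Mut replicate 2. Ivl, the envelope precursor involucrin, was listed at 0 in all 4 libraries. How much mucosa each dissected tooth carried was not tested.

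Among mesenchymal lists, dental papilla and jaw transcription factors had 1 of 28 members tested, Dlx1, which fell. The other factors were low: Msx1 had 654 and 0 against 0 and 0, Msx2 had 1834 and 1097 against 0 and 541, Barx1 had 1029 and 0 against 273 and 296, and Lhx8 was listed at 0 throughout. Odontoblast and dentin genes had 6 of 20 members tested, 0 called and 4 lying apart higher, with a median of 0.9. Col1a2, which forms type I collagen with Col1a1, had 8445 and 24451 normalized counts in Ascl5WT/WT and 60762 and 33388 in Ascl5Mut/Mut (1.64, limma adjusted p = 0.246). Its wild-type replicates differed more than the lower mutant value differed from the higher wild-type value.

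The dental follicle and periodontal ligament list had 11 of 25 members tested, 2 called higher (Igfbp5 and Postn) and 5 lying apart higher, with a median of 1.02. Its sums of 29811 and 35405 against 92505 and 90475 were close between replicates of each genotype. Igfbp5 and Postn together made up most of both Ascl5Mut/Mut sums. Ogn, a small proteoglycan, had 2401 and 3528 normalized counts in Ascl5WT/WT and 6974 and 6753 in Ascl5Mut/Mut (1.2, limma adjusted p = 0.374), and Spon1, a secreted adhesion protein, had 1957 and 4331 against 7104 and 7381 (1.28, limma adjusted p = 0.387). The 5 members with the smallest differences lay between -0.23 and 0.36 on the log2 scale.

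Fibrillar collagens and their partners had 19 of 33 members tested, with 0 called, 14 lying apart higher and 1 lower, and a median of 1.2 that ranged from 0.88 to 1.55 over the alternative settings. Sparc, a collagen-binding protein, had 1209 and 2493 normalized counts in Ascl5WT/WT and 9099 and 7085 in Ascl5Mut/Mut (2.13, limma adjusted p = 0.145). Col3a1, of soft connective tissue, had 2398 and 2632 against 9218 and 5830 (1.5, limma adjusted p = 0.285). The genotypes lay apart in both. The member that lay apart lower was Vcan, a large proteoglycan of loose matrix, at 19267 and 17084 against 5539 and 9572 (-1.3, limma adjusted p = 0.246). The basement membrane and hemidesmosome list had 8 of 32 members tested and 0 called, with 3 lying apart higher and 3 lower, 3 above 0, and a median of -0.4 that was 0.42 without genes with an opposite-strand overlap. On the lower side, Dst, a hemidesmosome linker, had 15508 and 15214 against 6079 and 6707 (-1.25, limma adjusted p = 0.237), Fras1 had 4983 and 5359 against 1550 and 1506 (-1.68, limma adjusted p = 0.257), and its partner Frem2 had 3057 and 4158 against 982 and 821 (-1.86, limma adjusted p = 0.331). On the higher side, Hspg2, the heparan sulfate proteoglycan perlecan, had 757 and 1635 against 2189 and 3025 (1.12, limma adjusted p = 0.563).

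Bone and bone-resorbing cells were described by 2 lists. The osteoblast list had 7 of 19 members tested, 0 called and 5 lying apart higher, with a median of 1.64 that was 0.88 without Ascl5WT/WT replicate 1. Ibsp, bone sialoprotein, had 329 and 5488 normalized counts in Ascl5WT/WT and 21832 and 19262 in Ascl5Mut/Mut (3.7, limma adjusted p = 0.143). Of the regulators of bone formation, Runx2 had 1405 and 540 against 0 and 141, and Sp7 had 217 and 237 against 0 and 692. Of 18 osteoclast genes 2 were tested, Ctsk, which rose, and the gelatinase Mmp9, at 109 and 0 against 4815 and 1661 (4.16, limma adjusted p = 0.374). Both had a wild-type mean under 1000 and were tested only through the mutant libraries. The osteoclast list summed to 2169 and 1794 against 19658 and 12930, an 8.22-fold ratio of means. Most of both mutant sums was Ctsk, at 11106 and 7277, so this ratio largely repeats that call. Atp6v0d2, a proton pump subunit of osteoclasts, had 0 and 0 against 844 and 2032, Acp5 had 213 and 0 against 278 and 985, and the receptor genes Tnfrsf11a and Oscar and the fusion gene Ocstamp were listed at 0 throughout, among 6 members at 0 in all 4 libraries. How much jaw bone each sample held was not tested.

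**Figure D4:**
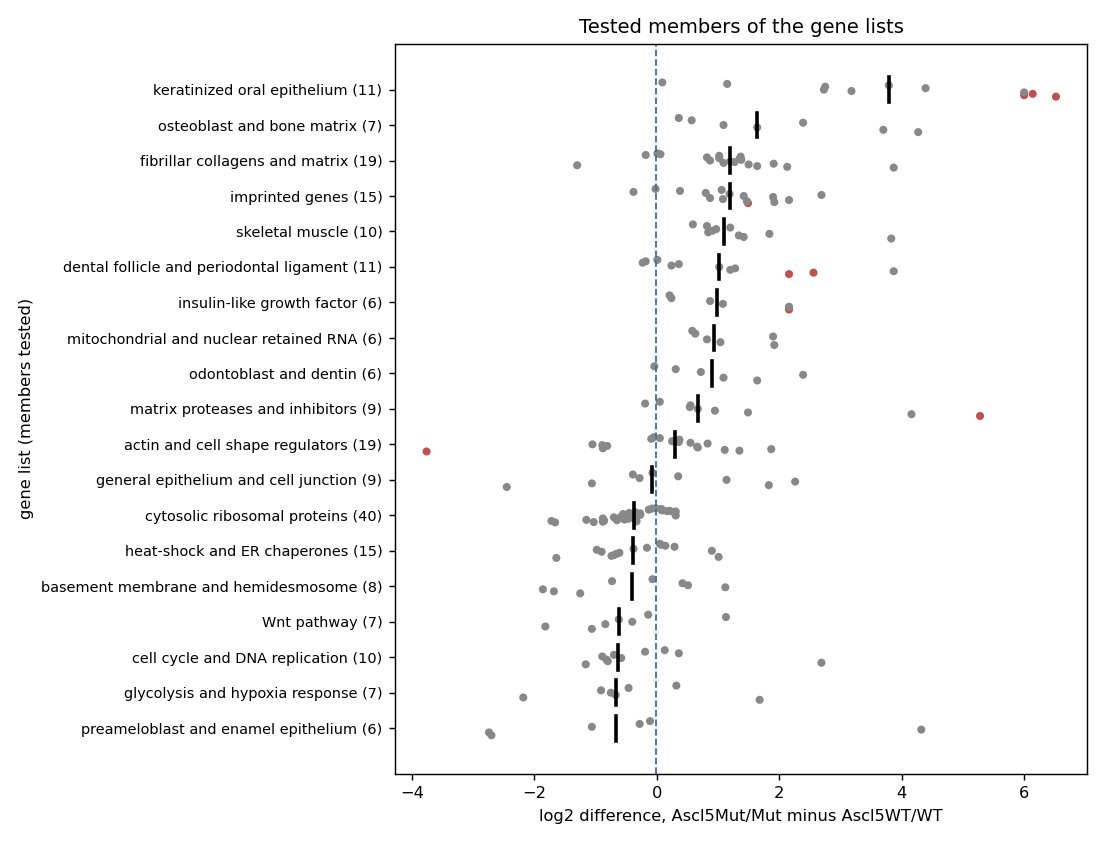
Log2 difference (horizontal) of the tested members of each gene list with 6 or more of them, 1 point a gene. Called genes are red, the list median is a black bar, and the dashed line is the median of all tested genes, -0.02. The median of keratinized oral epithelium is 3.79, where 10 of 11 members passed the filter only through the mutant libraries, and those of preameloblast and enamel epithelium and of glycolysis are -0.67.

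**Figure D5:**
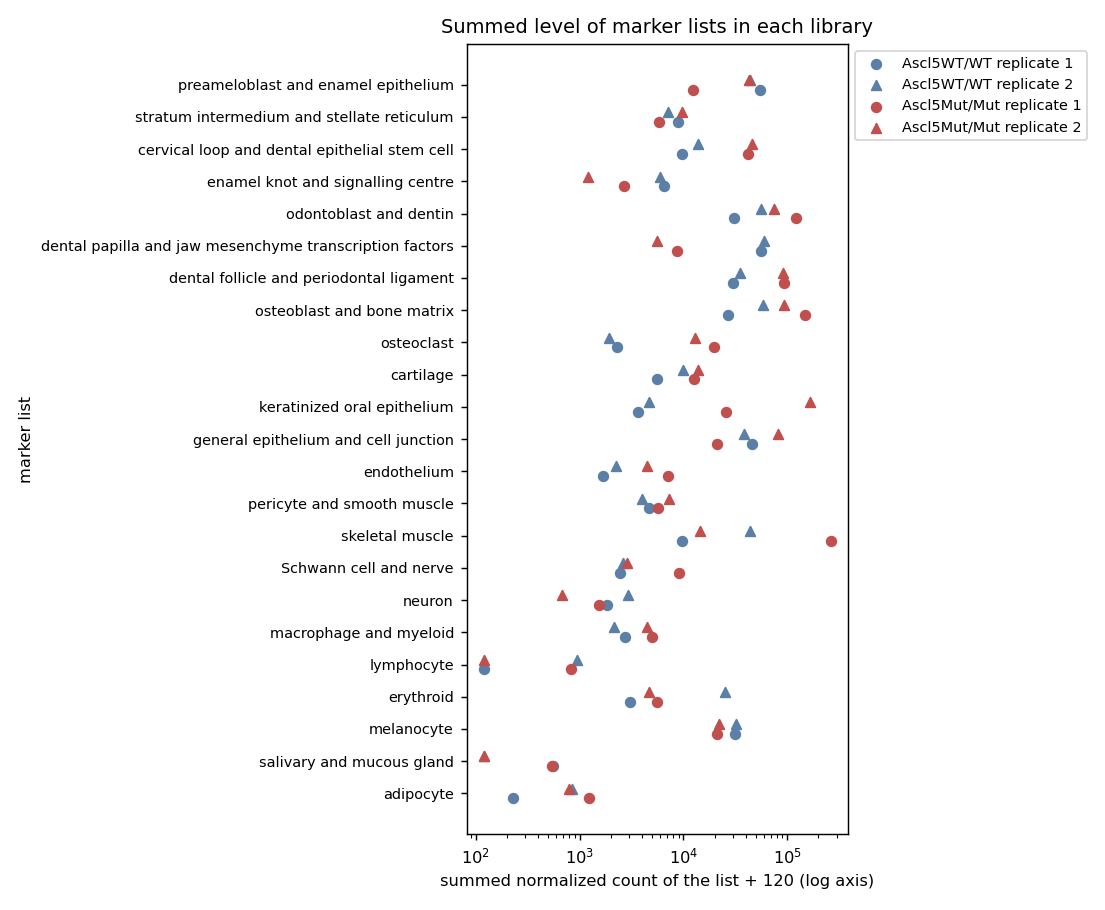
Summed normalized count + 120 of each marker list (horizontal, log axis) in each of the 4 libraries, with Ascl5WT/WT in blue, Ascl5Mut/Mut in red, circles for replicate 1 and triangles for replicate 2. Dental follicle and osteoclast sums lie apart between genotypes with close replicates, whereas skeletal muscle is highest in Ascl5Mut/Mut replicate 1 and overlaps between genotypes. In the mutant libraries most of the osteoclast sum is Ctsk, and most of the dental follicle sum is Igfbp5 and Postn.

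Of the 16 lists of other cell types, sums lay apart higher in the mutant libraries for 8, lower for 2, and overlapped for 6. Endothelial genes summed to 1577 and 2147 normalized counts in Ascl5WT/WT and to 6993 and 4311 in Ascl5Mut/Mut, with 1 of 23 tested, 0 called and 7 at 0 in all 4 libraries. Macrophage and myeloid genes summed to 2632 and 2047 against 4913 and 4353 with none tested. Melanocyte genes ran the other way at 31554 and 31938 against 21156 and 21988, nearly all of it Slc24a5, a pigment-cell exchanger whose exons overlap Myef2. Schwann cell and nerve genes summed to 2309 and 2528 against 8924 and 2761, so Ascl5Mut/Mut replicate 2 was close to wild type, while S100b, the 1 member tested, stood lower at 2094 and 1572 against 701 and 933 (-1.06, limma adjusted p = 0.624). Neuron genes summed to 1718 and 2823 against 1407 and 555 with none tested, and pericyte and smooth muscle genes to 4582 and 3920 against 5599 and 7088 with 1 of 13 tested and 0 called. Cartilage genes summed to 5424 and 9805 against 12622 and 13796 with 4 of 18 tested and 0 called and a median of 1.36 that was 0.62 without Ascl5WT/WT replicate 1. Of those 4, 3 had a wild-type mean under 1000 and were tested only through the mutant libraries, so this median follows in part from the filter. The part of any of these cells in the called genes was not tested.

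Signalling lists held few testable genes. The Notch list had 5 of 31 members tested, with Numb called lower and 3 lying apart lower, and a median of -1.64 that turned to 0.42 at a minimum mean of 10 and to 0.5 at a minimum mean of 300, and that was -0.45 without Ascl5Mut/Mut replicate 1. Notch2, a receptor, had 6008 and 8856 normalized counts in Ascl5WT/WT and 1255 and 2215 in Ascl5Mut/Mut (-2.05, limma adjusted p = 0.168), while Notch1 had 654 and 467 against 1242 and 1700 (1.22, limma adjusted p = 0.652). The sheddase Adam17 had 1225 and 0 against 842 and 4381 and overlapped (2.37, limma adjusted p = 0.564). The ligand gene Jag1 had 326 and 844 against 0 and 0. The hedgehog list had 1 of 17 members tested and 0 called, and summed to 8259 and 5071 against 3904 and 4438. The member tested was the antagonist Hhip, at 3057 and 994 against 971 and 132 (-1.84, limma adjusted p = 0.583). The targets Ptch1 and Gli1 had 547 and 359 against 139 and 0, and 444 and 471 against 0 and 0. Not all members were lower: Gas1 was at 0 in both wild-type libraries and had a mean of 700 in Ascl5Mut/Mut. Sostdc1, a secreted antagonist of BMP and Wnt, had 1413 and 1684 against 0 and 0. The Wnt list had 7 of 51 members tested and 0 called, with 2 lying apart lower and a median of -0.62 that was -1.13 without Ascl5Mut/Mut replicate 1. The ectodysplasin and NF-kB list had 1 of 17 members tested and 0 called, and its sums of 7345 and 4846 against 5291 and 7373 overlapped. The member tested, Tnfrsf19, a receptor related to that of ectodysplasin, had 5023 and 4007 against 1202 and 581 (-2.26, limma adjusted p = 0.203). Nfkbib ran the other way, at 0 in both wild-type libraries with a mean of 1193 in Ascl5Mut/Mut.

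The insulin-like growth factor list had 6 of 17 members tested, 1 called higher (Igfbp5) and 4 lying apart higher, with a median of 0.98. Igf2, the fetal growth factor, had 477 and 1315 normalized counts in Ascl5WT/WT and 4052 and 3959 in Ascl5Mut/Mut (2.16, limma adjusted p = 0.257). Its clearance receptor Igf2r had 4352 and 5363 against 9606 and 11146 (1.08, limma adjusted p = 0.366). Imprinted genes as a list had 15 of 37 members tested, with Copg2 called higher, 10 lying apart higher and 1 lower, 13 above 0 and a median of 1.19. Of those 15, 11 overlap an opposite-strand exon. Grb10, an adaptor that restrains growth, had 3390 and 7027 against 12661 and 14858 (1.47, limma adjusted p = 0.246). Kcnq1ot1, a long nuclear RNA, had 2407 and 4716 against 19328 and 8834 (1.92, limma adjusted p = 0.191). H19, a noncoding RNA next to Igf2, had 6495 and 13230 against 20792 and 14075.

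The basic helix-loop-helix partners and relatives of Ascl5 had 1 of 27 members tested. That gene, the E-protein Tcf4, had 1095 and 1113 normalized counts in Ascl5WT/WT and 969 and 1461 in Ascl5Mut/Mut (0.1), with overlapping genotypes. The E-protein Tcf3 had 420 and 591 against 0 and 143, and Tcf12 had 1706 and 637 against 433 and 713. The inhibitors Id1, Id2 and Id3 had at most 886 in any library.

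Lists of housekeeping processes held many testable genes. Ribosomal proteins had 40 of 78 members tested and 0 called, with 0 lying apart higher and 16 lower, 10 above 0, and a median of -0.37 that was -0.13 without Ascl5WT/WT replicate 2 and -0.65 without Ascl5WT/WT replicate 1. Rps3a1 had 123122 and 133766 normalized counts in Ascl5WT/WT and 103448 and 100247 in Ascl5Mut/Mut, and Rpsa, the laminin receptor protein of the small subunit, had 4977 and 6393 against 2224 and 3284. Heat-shock and endoplasmic reticulum chaperones had 15 of 31 tested, 0 called, 2 lying apart higher and 5 lower, with a median of -0.38 that was -0.09 without Ascl5Mut/Mut replicate 1. P4hb, a disulfide isomerase and subunit of collagen prolyl hydroxylase, stood higher at 10634 and 6388 against 15848 and 17585 (1.01, limma adjusted p = 0.368) while Hsp90ab1 stood lower, as given above. Glycolysis genes had 7 of 28 tested and 0 called, with a median of -0.67 that was -0.43 and -0.42 without Ascl5WT/WT replicate 1 and 2. Pgam1, a phosphoglycerate mutase, had 2186 and 2737 against 698 and 275 (-2.18, limma adjusted p = 0.387). Ldha, which makes lactate, ran against it at 879 and 1072 against 4595 and 2460 (1.68, limma adjusted p = 0.368). Cell cycle genes had 10 of 42 tested and 0 called, with a median of -0.64 that was -0.06 without Ascl5WT/WT replicate 1 and turned to 0.1 without Ascl5Mut/Mut replicate 2. Kif20a, a mitotic kinesin, had 10089 and 10593 against 5507 and 3792 (-1.16, limma adjusted p = 0.354), whereas Cdkn1c, an imprinted inhibitor of the cell cycle, had 0 and 576 against 1954 and 1564 (2.69, limma adjusted p = 0.557). The list of mitochondrial and nuclear retained RNAs had 7 of 20 members in the table and 6 tested, with 0 called and 3 lying apart higher. Its median was 0.93, and 1.44 without Ascl5WT/WT replicate 2. Malat1 had 24172 and 13956 against 43454 and 32956, and the ribosomal RNA precursor Rn45s overlapped at 47142 and 96163 against 91131 and 155964.

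For reference, the authors' separate table of Ascl5Mut/WT molars shares the same wild-type libraries and was normalized on its own, so its values are set beside these without a comparison. In that table Gpr39 had 59972 and 61194 normalized counts in Ascl5WT/WT and 8334 and 1640 in Ascl5Mut/WT. Dlx1 had 48116 and 55586 against 4658 and 2064, and Krt4 had 111 and 0 against 8146 and 15031. Gm11532 had 885114 and 405796 against 356431 and 417754, Numb had 25420 and 15821 against 22638 and 43082, and Gm13205 had 9019 and 5898 against 5656 and 5311. Within that table the values of Gm11532 and Numb overlapped between genotypes and those of Gm13205 lay just apart.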

How the data were processed

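Expression was measured by RNA-seq in 4 libraries, 2 of Ascl5Mut/Mut and 2 of Ascl5WT/WT molars, grouped by their titles. The authors deposited normalized gene counts, which were treated as a linear signal. Per the submitters' processing notes they used the mm10 genome and DESeq2. The sources used here do not name the aligner, the annotation, the strand setting or the sequencing depth. Of the values up to 5 steps, 86.0% to 92.9% per library fell within 0.1 of a whole step. Whole reads could not be recovered from so few, and count models were left out.

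From these values limma 3.58.1 (R 4.3.3) with an intensity trend was fitted to log2(normalized count + 120) for every gene whose mean reached 1000, two-sided, with Benjamini-Hochberg adjustment over all 2336 genes, and an adjusted p under 0.05 was a call. The method was checked on simulated data. In those data the spreads were shuffled between genes and counting noise was not drawn, so the check does not cover the intensity trend. Coordinates and overlaps are from GENCODE M21 (GRCm38), in which 24502 of the 24972 gene names (98.1%) were found. Promoter windows are from RefSeq.

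Genes were named from every called gene, the 10 uncalled genes per direction with the smallest p among those whose groups did not overlap, up to 4 tested members per list with the smallest p, the 10 genes per direction with the highest mean at 0 in the other genotype, and a few fixed markers. Not every gene that this rule selects is reported here. Other members of the lists, named for their role, were added after their values were seen. The members and lists were chosen with earlier results of these data known. Alternatives changed the pseudocount, the filter, the scaling, the variance model, the replicate block, the libraries and the genes fitted.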

Additional observations from a re-analysis of the deposited data

How the results depend on the processing

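The 20 calls (13 higher, 7 lower) depended on the settings. There were 4 (2 and 2) at a pseudocount of 1, 7 (4 and 3) at 30, 1 (0 and 1) at a minimum mean of 10, 4 (2 and 2) at 300, 11 (6 and 5) at 3000, and 34 (18 and 16) under upper-quartile rescaling. Robust variance moderation gave 42 (27 and 15), which held 18 of the 20 and left out Gm11532 and Tdrd1. Limma called 0 of 12731 genes with a pseudocount of 1 and a minimum mean of 10 together (1280 at an unadjusted p under 0.05, smallest adjusted p 0.163), 0 with no trend (242 and 0.12) and 0 without genes with an opposite-strand overlap (143 and 0.0663). Median-ratio rescaling, a factor of 1.038 for every library that only shifts the filter and the pseudocount, gave 11 lower calls among 28. Leaving out 1 library gave 0 to 33 calls, 0 to 26 higher and 0 to 7 lower. A pseudocount of 500, a filter on every library above 0, and leaving out genes on chromosomes X and Y gave 29, 18 and 25. Upper-quartile rescaling shifted the median of all genes to -0.16 and the share of calls that were higher to 52.9%, from 65.0%. Samples of the same replicate number share only that number (correlation of their deviations -0.013), so the fit with a replicate block is an alternative, and it gave 36 calls (20 and 16), which held all 20. Its number also separates the libraries with and without Y-linked counts.

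Among named genes, 185 values of called genes lost the call and 79 of uncalled genes gained it over the settings, and 12 turned sign, none of a called gene. Under upper-quartile rescaling Casz1 was at -0.07 and Tcf4 at -0.01. Leaving out 1 library in turn gave ranges of -0.67 to 0.76 for Casz1, -1.51 to 0.73 for Cdh1, -1.12 to 0.55 for Krt14, -0.25 to 1.63 for Rai14, -0.17 to 0.37 for Tcf4, -5.02 to 6.32 for Tsix and -3.33 to 1.15 for Xist.

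Of 455 list medians under alternatives, 430 moved by less than the spread between libraries. In 8 lists the median turned sign under at least 1 setting, 17 times in all, of which 12 are among those 430. Skeletal muscle went from 1.09 to -0.52 without Ascl5Mut/Mut replicate 1, stratum intermedium from 0.72 to -0.67 with a pseudocount of 1 and a minimum mean of 10, and general epithelium from -0.07 to 0.73 without Ascl5Mut/Mut replicate 1. With a pseudocount of 1 and a minimum mean of 10 the median was -2.9 for preameloblasts, 4.05 for osteoblasts, 0.78 for Notch, -0.92 for basement membrane, -0.98 for glycolysis and -1.31 for zinc transport, and a pseudocount of 1 alone gave 9.67 for keratinized epithelium. At a minimum mean of 3000 it was -2.7 for preameloblasts, 1.72 for dental follicle, 6.07 for keratinized epithelium and -0.57 for glycolysis. At 300 it was -1.48 for preameloblasts, 0.62 for odontoblasts, 0.5 for Notch and -0.15 for glycolysis, and at 10 it was 0.42 for Notch. Upper-quartile rescaling gave 0.61 for odontoblasts and -0.82 for glycolysis. Without genes with an opposite-strand overlap it was 0.42 for basement membrane and -0.04 for chaperones. Leaving out 1 library gave -1.13 to -0.49 for Wnt, -0.73 to -0.42 for glycolysis, -0.7 to 0.1 for the cell cycle and 0.87 to 1.44 for mitochondrial and nuclear retained RNA. The cause of these shifts was not tested. At 90476 to 117110 estimated reads per library, genes below the minimum mean could not be compared singly.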
